A study of Arabidopsis thaliana with 28 samples.

Results

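The 10 genes described here are the heat-shock factor gene HSFA2 and 9 chaperone genes of Arabidopsis thaliana that are best known for their strong induction by heat, examined in seedlings that received no treatment. They were chosen by name: HSFA2, HSP101, HSP90.1, HSP70-4, HSP18.2, HSP17.4, HSP17.6II, HSP17.6A, HSP21 and HSP22, 10 of the 27444 protein-coding genes on chromosomes 1 to 5. The mark is acetylation of histone H3 at lysine 9 (H3K9ac), which is found at active genes. The material was whole seedlings of the Col-0 accession, 10 days old, and there are 28 libraries in 14 groups of 2 replicates. A gene was taken to carry a domain when an H3K9ac domain of a library overlapped its annotated span by at least 1 bp.

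All groups share the genotype, the age and the antibody. PHILO is a ChIP-seq procedure scaled down for many small samples. Its groups carry labels for read depth (0.5M, 1M, 2M, 5M or 10M reads), were amplified with 10, 12 or 14 PCR cycles, made from 500K, 100K or 20K nuclei, or made from 1 mg of tissue. For eChIP, a plant ChIP variant with fewer extraction steps, the library titles also begin with PHILO. CUT&Tag uses an antibody-guided transposase in place of the precipitation. The whole seedling mixes many cell types, so fewer cells with the mark and less of the mark per cell cannot be told apart.

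Heat-shock proteins are chaperones that bind, refold or disaggregate damaged proteins. In plants, heat shock factors of class A1 bind heat shock elements, which are alternating GAA and TTC units, and switch on both the chaperone genes and HSFA2, a second factor that prolongs the response. Most of these genes are transcribed at a low level until the temperature rises.

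The heat shock elements of these genes are shown because they are the known entry point of the response and because some lay inside an acetylated domain and others did not. In the 150 bases before the annotated start of HSFA2 (chr2:11135474-11135623, plus strand, TAIR10) and of HSP17.4 (chr3:16984868-16985017, minus strand), the capitals mark every match to GAANNTTC or TTCNNGAA and to the 3-unit forms, in which GAANNTTC is followed by NNGAA or TTCNNGAA by NNTTC. The 3-unit site of HSP90.1 lay at chr5:21352262-21352274 on the plus strand, and that of HSP70-4 at chr3:3993854-3993866 on the minus strand. Those of HSP18.2 (chr5:24062396-24062408) and HSP22 (chr4:6370387-6370399) were on the plus strand.
HSFA2: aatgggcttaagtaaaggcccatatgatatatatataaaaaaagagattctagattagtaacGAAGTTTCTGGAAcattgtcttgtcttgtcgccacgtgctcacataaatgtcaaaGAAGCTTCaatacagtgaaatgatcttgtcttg
HSP17.4: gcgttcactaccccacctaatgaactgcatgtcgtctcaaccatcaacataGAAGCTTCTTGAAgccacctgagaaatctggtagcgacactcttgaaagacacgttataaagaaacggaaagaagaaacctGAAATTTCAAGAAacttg
HSP90.1: GAACTTTCTGGAA
HSP70-4: GAACGTTCTCGAA
HSP18.2: GAAACTTCCTGAA
HSP22: TTCAAGAAACTTC

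A 3-unit site began 88 bases before the annotated start of HSFA2, and 99 and 18 bases before that of HSP17.4. It began 295 bases before the start of HSP90.1, within the span of the upstream gene MEF1. In HSP70-4, HSP18.2 and HSP22 it began 20, 73 and 49 bases downstream of the annotated start base. In the window from 250 bases before to 50 after the start, searched on both strands, 6 of the 10 genes held a 2-unit form, against 19.3% of 27443 protein-coding genes, and 3 held a 3-unit form, against 0.481%. The forms overlap, since each 3-unit match contains 2-unit matches. In the 400 bases before the coding start, a window added after the data were seen, 6 of the 10 genes held a 3-unit form, against 0.955% of all genes. These matches describe letters and were not tested for binding. Of these sites, that of HSFA2 lay inside a domain in both 10M libraries and in 24 of the 28 libraries. That of HSP18.2 lay in a domain in 3 libraries and that of HSP90.1 in 1. Those of HSP17.4, HSP70-4 and HSP22 lay in a domain in 0 of 28.

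In the deepest libraries, labelled 10M reads, HSFA2, HSP101 and HSP18.2 carried a domain in both replicates, and the other 7 genes carried none in either. These 3 of 10 genes compare with 62.4% of all protein-coding genes. Among the 2902 protein-coding genes as long as the small heat-shock genes (750 to 1147 bp), the share was 36%. Of the members in this range only HSP18.2 carried a domain at 10M, whereas HSFA2 (2169 bp) and HSP101 (3862 bp) are longer. HSP17.4, HSP17.6II, HSP21, HSP22 and HSP70-4 had no domain in any of the 28 libraries, as did 26.7% of protein-coding genes and 47.8% of those in this length range, to which 4 of the 5 genes belong. No member had one in all 28 libraries, against 26.9% of protein-coding genes and 15.5% of those in the length range. Over the 14 groups, the share with a domain in both libraries ran from 17.7% at 0.5M to 37.7% in CUT&Tag in the length range, below the share of all protein-coding genes in each group. These counts describe a list chosen by name, with earlier results of these data known, and carry no test.

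**Figure D1:**
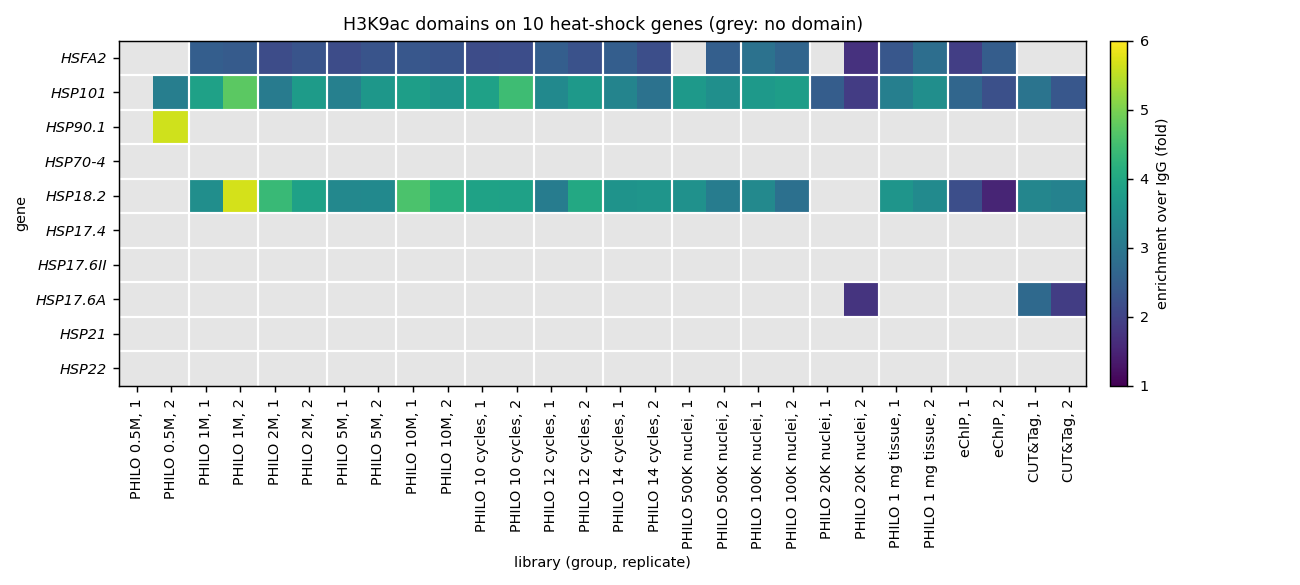
Enrichment over the IgG control (fold, colour scale from 1 to 6) of the H3K9ac domains on each of the 10 heat-shock genes (rows) in each of the 28 libraries (columns, by group and replicate). Grey cells have no domain. HSFA2, HSP101 and HSP18.2 fill most of their rows with 22, 27 and 24 of 28 libraries, HSP17.6A and HSP90.1 have 3 and 1, and the other 5 rows are empty.

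Across the series, 77 of the 280 pairs of a gene and a library held a domain, and 73 of these belonged to HSFA2, HSP101 or HSP18.2. Exactly these 3 genes and no other member carried a domain in 21 libraries. The number per library ran from 0 in replicate 1 of the 0.5M group to 3 in 24 libraries. The libraries differed in depth and in the size of their domain lists, and the part of either in these counts was not tested. The read depth recovered from the deposited values ran from 3.24% to 105% of the 10M mean, the lists held 7813 to 15238 domains, and 207252 to 7244177 ChIP reads fell inside them. All 4 leaf markers (RBCS1A, LHCB1.1, LHCB1.3 and RCA) had a domain in both 10M libraries. LHCB1.1 and LHCB1.3 had an identical mean enrichment of 3.48 there, so they are not independent markers. LHCB1.1 had a domain in 25 libraries and in neither eChIP library, and the other 3 had one in all 28. The root hair genes EXPA7 and COBL9 had none in any of the 28 libraries, although whole seedlings include roots. Of the 3 seed storage genes and the 3 floral genes, 0 had one in the 10M libraries.

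HSFA2 (AT2G26150, chr2:11135624-11137792, plus strand) encodes the heat shock factor that keeps the heat response running after its onset. Its enrichment, the ChIP reads over IgG reads of the domain after division by the library sizes, was 2.36 and 2.30 in the 10M libraries, from 309 and 334 ChIP reads over 131 IgG reads in each. Over the 22 libraries with a domain, the enrichment ran from 1.70 to 2.88 with a median of 2.33. This was low for an acetylated gene: of the 17123 protein-coding genes with a domain in both 10M libraries, 4.39% had a lower mean enrichment, and their median was 4.34.

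The domain lay across the start of HSFA2 in all 22 libraries. It ran from 1023 bp before the start to 576 bp after it in both 10M libraries, and it was 1400 to 2000 bp wide over all libraries. FTSH4 (AT2G26140), which encodes a mitochondrial protease, starts 159 bp away on the opposite strand, and the same domain covered it in each of the 22 libraries. FTSH4 carried a domain in 26 libraries. HSFA2 lacked one in both 0.5M libraries, in replicate 1 of 500K nuclei, in replicate 1 of 20K nuclei and in both CUT&Tag libraries. In the last 4 of these, a domain ended 23 to 423 bp before the HSFA2 start, on the FTSH4 side. How much of the HSFA2 signal belongs to either gene was not tested.

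HSP101 (AT1G74310, chr1:27936508-27940369, minus strand) encodes the cytosolic disaggregase of the ClpB family, which is needed for acquired heat tolerance. It carried a domain over its start in every library except replicate 1 of the 0.5M group. The 10M libraries gave 3.81 and 3.63, from 532 ChIP over 140 IgG reads and 619 over 154. Over the 27 libraries the enrichment ran from 1.90 to 4.74 with a median of 3.47. Among genes with a domain in both 10M libraries, 32.4% were lower. The lowest values came from replicate 2 of 20K nuclei at 1.90 and replicate 2 of eChIP at 2.23, and the highest from replicate 2 of the 1M group at 4.74.

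The HSP101 domain was 1800 to 3200 bp wide. In the 10M libraries it reached 1168 bp into the transcribed span, past the coding start 507 bp downstream of the annotated start. AT1G74320, annotated as a protein kinase superfamily gene, starts 225 bp away on the opposite strand and shared the domain in all 27 libraries. The only heat shock element letters in the window from 250 bases before to 50 after the start of HSP101 were GAAAATTC at chr1:27940333-27940340, which lay in the domain in 27 libraries.

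HSP18.2 (AT5G59720, chr5:24062323-24063300, plus strand) encodes a class I small heat-shock protein of the cytosol, a chaperone that holds unfolding proteins in solution. Its domain differed in position from the others. In both 10M libraries it began 278 bp after the annotated start and ended 877 bp after it, over a coding sequence that begins at 309 bp. The start itself lay inside a domain in 3 of the 24 libraries with a domain, namely replicate 2 of eChIP and both CUT&Tag libraries. For comparison, 27.2% of protein-coding genes had their start in a domain in both 10M libraries, and 2 of the 10 members did.

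The 10M enrichment of HSP18.2 was 4.59 and 4.14, from 197 ChIP over 43 IgG reads in each library. This lay near the middle: 50.6% of genes with a domain in both 10M libraries were lower. Over 24 libraries it ran from 1.53 in replicate 2 of eChIP to 5.68 in replicate 2 of the 1M group, with a median of 3.50. The 1M value rests on 19 ChIP reads in a domain of 400 bp. HSP18.2 had no domain in the 0.5M and the 20K nuclei libraries, where the nearest domain lay 900 to 1100 bp away.

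**Figure D2:**
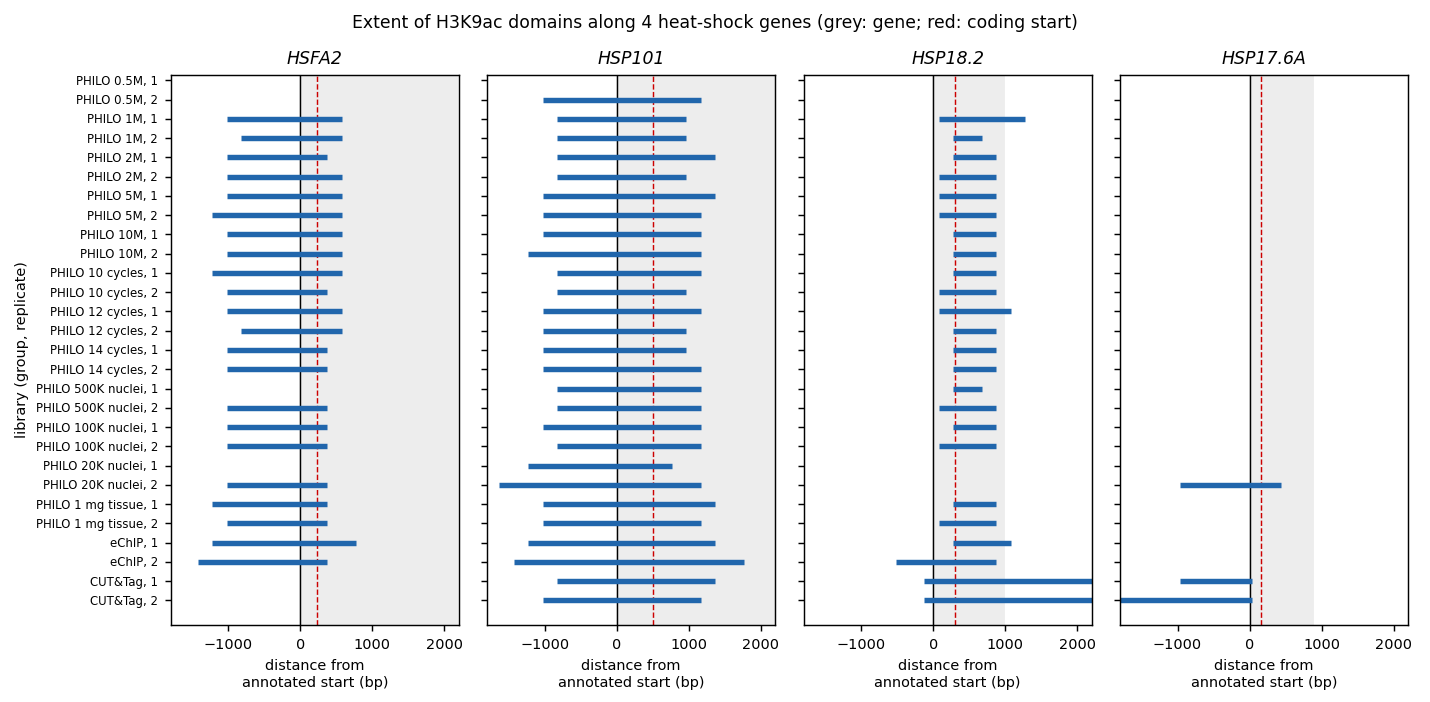
Extent of the domains (blue bars, 1 row per library) on HSFA2, HSP101, HSP18.2 and HSP17.6A, as distance in bp from the annotated start in the direction of transcription. Grey marks the gene, the black line the annotated start and the dashed red line the coding start. The CUT&Tag domains on HSP18.2 go on to 7677 and 7277 bp and that of replicate 2 on HSP17.6A to 5362 bp upstream, beyond the axis. Domains straddle the start of HSFA2 and HSP101 but mostly begin inside HSP18.2.

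HSP17.6A (AT5G12030, chr5:3883957-3884838, minus strand) and HSP17.6II (AT5G12020, chr5:3882231-3883111, minus strand) encode class II cytosolic small heat-shock proteins and lie next to each other, 845 bp apart. HSP17.6A was reached by a domain in 3 libraries. Replicate 2 of 20K nuclei gave an enrichment of 1.76 from 102 ChIP reads and covered 49.7% of the gene. The CUT&Tag replicates gave 2.71 from 83 reads and 1.91 from 631 reads, and each overlapped the gene by 38 bp only. AT5G12040 starts 111 bp away on the opposite strand and carried a domain in all 28 libraries, and in the 10M libraries its domain stopped 162 bp short of HSP17.6A. HSP17.6II was never reached, and in the 10M libraries the nearest domain lay 1889 bp away.

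HSP90.1 (AT5G52640, chr5:21352557-21355147, plus strand), the heat-inducible member of the cytosolic HSP90 family, had a domain in 1 library, replicate 2 of the 0.5M group. That domain of 800 bp held 10 ChIP reads over 52 IgG reads, an enrichment of 5.65, and the exact Poisson 95% interval of the 10 reads runs from 4.80 to 18.4. No other library had one. In the 10M libraries the nearest domain lay 1053 bp away, although both neighbouring genes carried domains in 26 and 28 libraries.

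The other genes without any domain lay at varying distances from acetylated chromatin. HSP70-4 (AT3G12580, chr3:3991117-3993886, minus strand), a heat-inducible cytosolic HSP70, was 914 bp from the nearest domain in the 10M libraries. HSP21 (AT4G27670, chr4:13818825-13819971, minus strand), the small heat-shock protein of the chloroplast, was 624 bp away, on the side of AT4G27660. That neighbour carried a domain in 26 libraries, and AT4G27680, the divergent neighbour of HSP21, in 28. HSP17.4 (AT3G46230, chr3:16984118-16984867, minus strand), of class I, was 4317 bp away. HSP22 (AT4G10250, chr4:6370338-6371372, plus strand), of the endoplasmic reticulum, was 1828 and 3228 bp away, and neither of its neighbours had a domain in any library. The lowest enrichment that was called among domains of 400 to 1000 bp in the 10M libraries was 1.28 and 1.26, and 95% of such domains exceeded 2.30 and 2.22. These values describe called domains only, and how often a weaker level goes uncalled was not measured. A missing domain is therefore not a measured absence of the mark. Nearly all of each gene can be mapped: for 9 of the 10 genes every 50-base window occurs once in the genome, and for HSP101 99.8% do.

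The depth groups compare libraries that differ in labelled read number. With both 0.5M libraries 0 of 10 genes had a domain, against 31.2% of protein-coding genes. HSP101 appeared in replicate 2 alone, with 15 ChIP reads and an enrichment of 3.15. From 1M reads upwards, HSFA2, HSP101 and HSP18.2 were present in both libraries of each depth group, whereas the share of protein-coding genes went on from 50.1% at 1M to 62.4% at 10M. At 10M the means were 2.33 ± 0.04 (SD, n = 2) for HSFA2, 3.72 ± 0.12 for HSP101 and 4.37 ± 0.32 for HSP18.2. Plastid domains held 13.4% of the reads in domains in replicate 1 of the 0.5M group, and this list held 7813 domains against 10169 in replicate 2. The part of depth and of these differences in the missing domains was not tested. The share of protein-coding genes with a domain in both libraries was 56.1% at 2M and 59.3% at 5M.

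Among the depth groups with a domain in both libraries, mean enrichment was highest at 1M and second at 10M for each of these 3 genes. HSFA2 was 2.47 ± 0.04 (SD, n = 2) at 1M, 2.23 ± 0.09 at 2M and 2.23 ± 0.11 at 5M. HSP101 was 4.30 ± 0.63 at 1M, 3.41 ± 0.48 at 2M and 3.42 ± 0.33 at 5M. HSP18.2 was 4.58 ± 1.56, 4.13 ± 0.38 and 3.35 ± 0.03 at the same depths. The HSP101 replicates of the 1M group, at 3.86 and 4.74, lay above both 10M libraries, and those at 2M, at 3.07 and 3.75, straddled the lower of them. The HSP18.2 replicates at 1M, 3.48 and 5.68, lay on either side of the 10M values. The median of all domains was also higher at 1M, at 5.09 and 5.78. Relative to it, the 1M means lay below those at 10M, at 45.6% ± 4.89 (SD, n = 2) against 53.8% ± 0.29 for HSFA2, 78.9% ± 4.45 against 85.8% ± 0.85 for HSP101 and 83.3% ± 21.2 against 100.6% ± 4.99 for HSP18.2. No order with depth was tested.

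With 10, 12 and 14 PCR cycles HSFA2, HSP101 and HSP18.2 were present in both libraries of each group, 3 of 10 genes against 55.2%, 56.1% and 57.2% of protein-coding genes. HSP101 read 4.16 ± 0.41, 3.53 ± 0.22 and 3.08 ± 0.26 (SD, n = 2), with replicates of 3.87 and 4.45, 3.38 and 3.68, and 3.26 and 2.89. These replicates did not overlap between the groups. The median of all domains in the same libraries also fell, at 4.62 and 4.93, 4.32 and 4.39, and 4.27 and 4.08. The share of all genes that separated in this way was not computed, and the order was not tested. As a percentage of the median enrichment of all domains in the same library, HSP101 stood at 86.9% ± 4.51, 81.0% ± 4.13 and 73.7% ± 3.87, and here the groups overlapped, with 83.8% in replicate 1 of 10 cycles and 84.0% in replicate 2 of 12 cycles. HSFA2, at 2.17 ± 0.01, 2.38 ± 0.16 and 2.35 ± 0.22, did not share this order, and neither did HSP18.2, at 3.87 ± 0.00, 3.55 ± 0.65 and 3.59 ± 0.02.

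**Figure D3:**
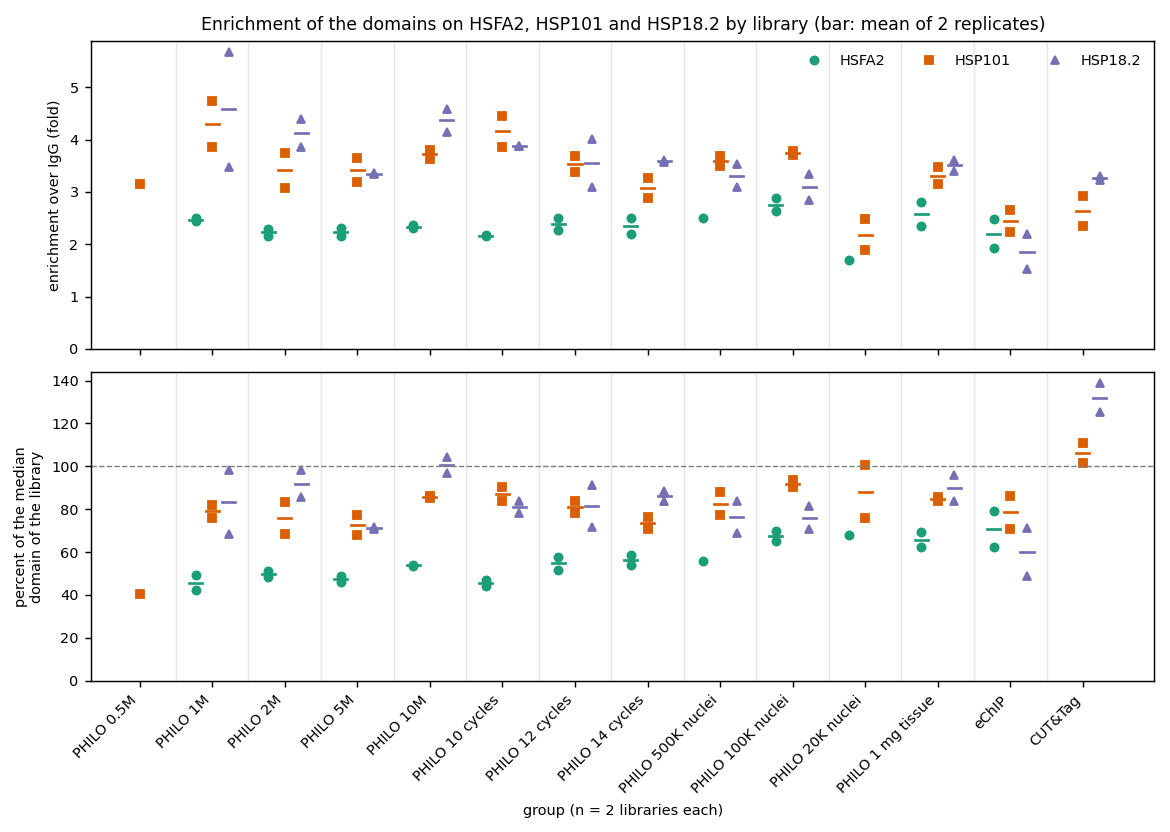
Enrichment over IgG (fold, top) and the same value as a percentage of the median enrichment of all domains in that library (bottom) for HSFA2, HSP101 and HSP18.2, by group with 2 libraries each. Points are libraries, bars are means where both replicates had a domain, and the dashed line marks the library median. HSFA2 stays below 60% of the median in the depth and cycle groups, and HSP101 and HSP18.2 exceed 100% in CUT&Tag.

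The nuclei groups ask how little chromatin suffices. HSP101 was enriched 3.69 and 3.49 from 500K nuclei, 3.71 and 3.78 from 100K nuclei, and 2.47 and 1.90 from 20K nuclei. The median of all domains was also lower in the 20K libraries, at 2.46 and 2.51, against 4.04 to 4.51 in the 500K and 100K libraries. Plastid domains held 15.43% and 13.9% of the reads in domains of the 20K libraries, and no plastid domain was called in the 500K and 100K libraries. Their part in the result was not tested. Relative to the median domain, HSP101 reached 82.6% ± 7.49 from 500K nuclei and 88.2% ± 17.7 from 20K nuclei. HSP18.2 had no domain in either 20K library and was enriched 3.31 ± 0.30 from 500K and 3.10 ± 0.35 from 100K nuclei. HSFA2 was enriched 2.76 ± 0.18 from 100K nuclei and kept a domain in 1 replicate each of 500K nuclei (2.51) and 20K nuclei (1.70). From 500K nuclei 2 of 10 genes had a domain in both libraries (58.5% of protein-coding genes), from 100K nuclei 3 (59.5%) and from 20K nuclei 1 (43.9%).

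For a test, the ChIP counts of merged regions that held a domain in each of the 4 libraries compared were fitted with edgeR, and p-values were adjusted over all regions by the Benjamini-Hochberg method. The counts hold only reads inside the called domains of a region, so a wider domain adds reads. They were scaled to each other, so the test compares the share of reads in these domains and not their enrichment over IgG. The p-values measure only the spread between these libraries, which may be technical. In 20K against 500K nuclei, 0.0536% of the 9327 regions were called (5 regions, with 1078 at an unadjusted p under 0.05 and 21 called by DESeq2), and 0 of the 3 regions that reached a member were. The region of HSP101 held a mean CPM (reads scaled to a common total) of 79.8 from 500K nuclei and 116 from 20K nuclei, and the lower 20K library, at 109, lay above both 500K libraries. The log2 difference was 0.54 (SE 0.18, 95% interval 0.11 to 0.97, adjusted p = 0.378). Without replicate 1 of 20K nuclei it was 0.62 and without replicate 2 it was 0.46, where the lone library is assumed to vary like the 500K pair. The domain covered 2000 and 2800 bp in the 20K libraries and 2000 bp in each 500K library. When the covered length entered as an offset, the difference was 0.30 (adjusted p = 0.597, edgeR). DESeq2 gave 0.55 (adjusted p = 0.817). HSFA2 differed by 0.24 (−0.22 to 0.71, adjusted p = 0.645), in a region whose domain reached the gene in 1 library of each group. The region of HSP17.6A differed by 0.13 (adjusted p = 0.907), with 225 and 102 reads in the 20K libraries. Its domain reached the gene in replicate 2 of 20K nuclei only. The sign of the difference depended on which 20K library was left out, at −0.63 without replicate 1 and 0.64 without replicate 2.

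Libraries from 1 mg of tissue carried domains on HSFA2, HSP101 and HSP18.2, 3 of 10 genes against 59.6% of protein-coding genes. HSFA2 was enriched 2.35 and 2.81, HSP101 3.15 and 3.47, and HSP18.2 3.61 and 3.40. Of the regions tested against the 10M group, 27.4% were called, and 0 of the 3 member regions were. In CPM, HSP101 stood at 89.0 and 78.1 against 81.4 and 87.9, a log2 difference of −0.02 (SE 0.09, 95% interval −0.21 to 0.18, adjusted p = 0.899, edgeR). HSFA2 differed by 0.07 (−0.14 to 0.29, adjusted p = 0.618) and HSP18.2 by −0.02 (−0.34 to 0.30, adjusted p = 0.931). The intervals do not show that the levels are equal.

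eChIP gave domains on these 3 of 10 genes too, against 59% of protein-coding genes. Mean enrichment over IgG was lower than at 10M for HSP101 and HSP18.2. HSP101 was enriched 2.66 and 2.23, and HSP18.2 2.20 and 1.53. HSFA2, at 1.93 and 2.48, overlapped the 10M values. The median of all domains was 3.09 and 3.14 in these libraries, against 4.41 and 4.27 at 10M. Relative to it, HSFA2 stood at 70.7% ± 11.7 (SD, n = 2) against 53.8% ± 0.29 at 10M, HSP101 at 78.5% ± 10.7 and HSP18.2 at 59.9% ± 15.9. The HSP101 domains were 2600 and 3200 bp wide, against 2200 and 2400 bp at 10M. In the count test 27.8% of regions were called and 0 of 3 member regions were. HSFA2 came closest, with 59.8 and 59.8 CPM against 47.9 and 48.0, a log2 difference of 0.32 (SE 0.10, 95% interval 0.09 to 0.55, adjusted p = 0.0507, edgeR). Its adjusted p was 0.0401 with total counts in place of TMM scaling, 0.0323 and 0.0345 without replicate 1 or 2 of eChIP, and 0.303 and 0.301 without replicate 1 or 2 of 10M, each with a lone library assumed to vary like the pair. When the covered length entered as an offset, the difference was 0.08 (adjusted p = 0.689). HSP101 differed by 0.11 (−0.09 to 0.30, adjusted p = 0.388) and HSP18.2 by −0.25 (−0.62 to 0.13, adjusted p = 0.283). The length offset turned HSP101 to −0.22 (adjusted p = 0.297) and took HSP18.2 to −1.10 (adjusted p = 0.0302).

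In CUT&Tag the set of genes with an overlap of at least 1 bp was different, and the genes that differed lay at domain edges. In both libraries a domain ended 23 bp short of HSFA2, and a domain overlapped HSP17.6A by 38 bp only. HSFA2 was missing from both libraries and HSP17.6A was present in both, beside HSP101 (2.92 and 2.35) and HSP18.2 (3.30 and 3.22), so 3 of 10 genes had a domain in both libraries, against 56.3% of protein-coding genes. All 28 lists share 1 IgG control, so CUT&Tag reads were also set against it. Relative to the median domain of the library, HSP18.2 stood at 132% ± 9.68 (SD, n = 2) and HSP101 at 106% ± 6.60, above their 10M values of 100.6% ± 4.99 and 85.8% ± 0.85, whereas without this centring both lay below the 10M libraries. The domain on HSP18.2 was 7800 and 7400 bp wide, against 600 bp at 10M, and took in EXO70H7 (AT5G59730), which encodes a subunit of the exocyst that tethers secretory vesicles.

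In the count test of CUT&Tag against the 10M group, 47.4% of regions were called (53.4% of them higher, or 36.4% with total counts, which moved the median of all regions from −0.01 to −0.16 on the log2 scale). Of 4 member regions 1 was called, that of HSP18.2, which spans 7800 bp with EXO70H7. It held 397 and 338 CPM in CUT&Tag and 253 and 242 at 10M, a log2 difference of 0.56 (SE 0.09, 95% interval 0.33 to 0.79, adjusted p = 0.00682, edgeR). The covered length was 7800 and 7400 bp against 2600 bp in each 10M library. Corrected for that length by an offset, the difference turned to −0.98 (adjusted p = 0.00132). Under the other alternatives the difference stayed positive, from 0.41 to 0.68. Where these kept all 4 libraries, the adjusted p ran from 4.29e-05 (DESeq2) to 0.0131 (edgeR, total counts). At 10M the region held 1588 and 1635 reads, of which 197 in each library lay in the domain on HSP18.2. HSP101 differed by −0.33 (−0.81 to 0.16, adjusted p = 0.214) and HSFA2 by −0.40 (−0.91 to 0.12, adjusted p = 0.161), and without replicate 1 of CUT&Tag they were −0.59 (adjusted p = 0.000406) and −0.66 (adjusted p = 0.000986). Without replicate 2 they were −0.065 (adjusted p = 0.665) and −0.11 (adjusted p = 0.579). In these fits the lone CUT&Tag library is assumed to vary like the 10M pair. HSFA2 turned to 0.82 with the length offset (adjusted p = 0.00643), and its CUT&Tag domains did not reach the gene. The domains in the region of HSP17.6A overlapped the gene by 38 bp in each CUT&Tag library and did not reach it in the 10M libraries. This region held 83 and 631 reads in CUT&Tag and 584 and 684 at 10M. It differed by 0.04 (−1.08 to 1.17, adjusted p = 0.949). With a lone CUT&Tag library the difference was 0.57 without replicate 1 and −1.09 without replicate 2. Most of these regions also span the neighbouring genes named above.

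Between the 0.5M and the 10M group 2.98% of 6818 regions were called, and no member region could be tested because none had a domain in all 4 libraries.

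The other lists place the 10 genes within their families. Of 20 other heat shock factors, 14 had a domain in both 10M libraries, with a median enrichment of 4.82. HSFC1 was highest at 10.0 ± 0.07 (SD, n = 2) and HSFB4 lowest at 2.94 ± 0.06, and HSFA6A, HSFA6B, HSFA7B, HSFA9 and HSFB3 had none. Of the class A1 factors, which start the response, HSFA1A, HSFA1B and HSFA1D carried domains in 28, 28 and 26 libraries and HSFA1E in 9. HSFA2, at 2.33, lay below every other factor with a domain in both 10M libraries.

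Of 15 constitutive or organellar chaperones, 14 had a domain in both 10M libraries (median 3.80), from cpHSC70-1 of the chloroplast at 5.87 ± 0.65 down to HSP90.4 at 2.59 ± 0.06. HSC70-2 had none. Next to HSP90.1 with 1 library, the constitutive HSP90.2, HSP90.3 and HSP90.4 had domains in 22, 24 and 22 libraries. These 3 are close copies, and 83.6%, 79.3% and 83.7% of their 50-base windows occur once in the genome, so reads may be shared among them. Next to HSP70-4 with 0 libraries, HSC70-1 and HSC70-3 had 28 and 26. The organellar relatives of HSP101, CLPB3 and CLPB4, had 26 and 22.

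**Figure D4:**
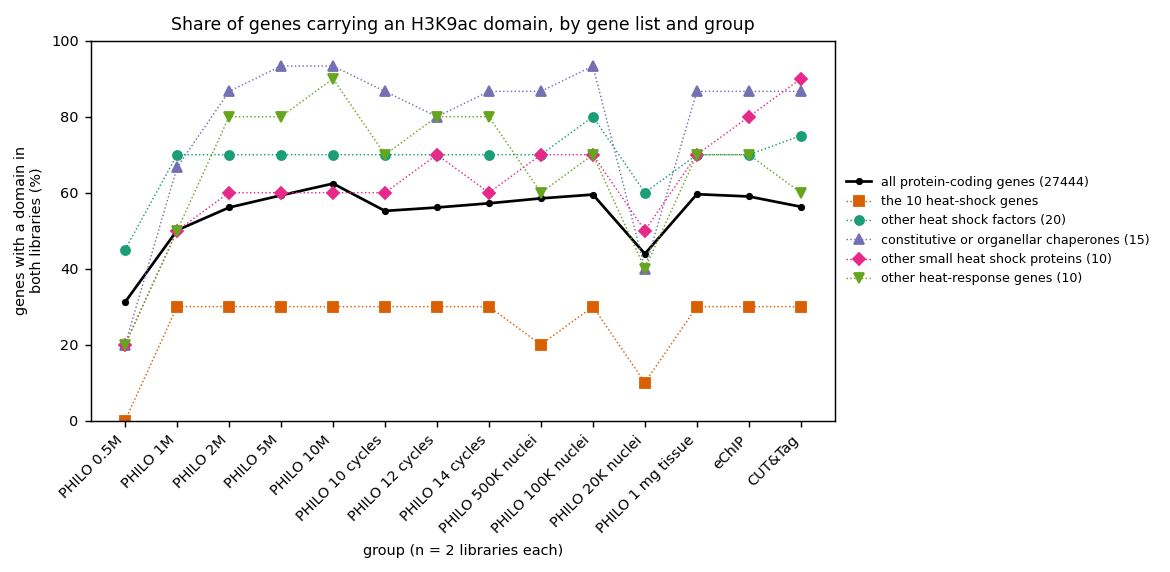
Percentage of genes with an H3K9ac domain in both libraries of a group, for the 10 heat-shock genes, 4 other lists and all 27444 protein-coding genes (black line). Dotted lines only guide the eye. The 10 genes stay at or below 30% in each of the 14 groups, while all protein-coding genes run from 31.2% to 62.4%.

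Of 10 other small heat-shock protein genes, 6 had a domain in both 10M libraries (median 4.80), from HSP15.7 at 5.17 ± 0.48 to HSP17.8 at 2.39 ± 0.06. HSP17.6C, HSP23.6 and HSP26.5 had none in these libraries, although each had a domain in 4, 11 and 2 of the 28. Of 10 other genes of the heat response, 9 had one (median 3.38). MBF1C, a transcriptional coactivator, was highest at 6.46 ± 0.45 and DREB2A, a factor of the drought and heat response, lowest at 2.10 ± 0.04. APX2, a heat-inducible ascorbate peroxidase, had none. HSP70b, an HSP70 that is also heat-inducible, carried a domain in all 28 libraries at 4.07 ± 0.16, unlike HSP70-4. The median of the 3 acetylated members was 3.72 and that of all genes with a domain 4.34. The lists were not tested against one another.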

How the data were processed

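H3K9ac was profiled in 28 libraries. The authors aligned reads to TAIR10 with Bowtie2 and called domains per library with epic2 against IgG. The submitters' processing notes name SICER 0.0.52. Window, gap and FDR limits were not given in the sources used here. Each deposited domain list gives ChIP and IgG read counts, a log2 fold change scaled by library size, a p-value, an FDR and a score. The deposited p-value and score were not used. Library size ratios were recovered from the counts and the log2 fold change. Of 134526 distinct intervals, 0 had more than 1 IgG count. Counts carry no molecular identifiers, so intervals cover counting error only.

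Genes, sequences and start windows came from the RefSeq TAIR10.1 genome and annotation. The windows were read from the genome in place of a promoter table. Positions are 1-based. Enrichment sums the domains on a gene. Merged regions on chromosomes 1 to 5 were tested with edgeR 4.0.16 (quasi-likelihood, TMM, two-sided, Benjamini-Hochberg adjusted p threshold 0.05) in R 4.3.3. The code was tested on simulated data. Alternatives used DESeq2 1.42.0, total counts, a minimum of 50 counts, an offset for or minimum of covered length, a replicate block, and each library left out. Members and lists were chosen with earlier results of these data known. All members are named. Of each other list, the genes of highest and lowest 10M enrichment and those without a domain in either 10M library are named. Class A1 factors and close relatives of members were added after their values were seen. Likeness to other genes was not computed, because 0 members had a domain in all 28 libraries.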

Additional observations from a re-analysis of the deposited data

How the results depend on the processing

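The count of members with a domain in both 10M libraries (3) fell to 1 (HSP18.2) when 50% of the gene span had to be covered, and to 2 (HSFA2 and HSP101) when the start had to lie in a domain. The count present in all 28 libraries went from 0 to 1 (HSP101) without replicate 1 of the 0.5M group and to 2 (HSP101 and HSP18.2) without the 0.5M and 20K nuclei groups, both choices made after seeing the data. Centred on the median domain of each library, enrichment moved by more than its SD for HSFA2 in eChIP (3.07), for HSP101 from 20K nuclei (3.83), 1 mg of tissue (3.67), eChIP (3.40) and CUT&Tag (4.60), and for HSP18.2 from 1 mg of tissue (3.90), eChIP (2.60) and CUT&Tag (5.73). It also did so for HSFA2 at 1M (1.98), 5M (2.05) and 10 cycles (1.97), HSP101 at 1M (3.42) and 100K nuclei (3.99), HSP18.2 at 5M (3.09), 10 cycles (3.52) and 14 cycles (3.73), and HSP17.6A in CUT&Tag (4.02).

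Regions called went from 203 to 0 for 0.5M, from 3624 to 106 for 1 mg and from 3514 to 1734 for eChIP with an offset for the covered length. With a minimum covered share of 80% per library, 5 (0.5M), 51 (20K nuclei), 2031 (1 mg), 1622 (eChIP) and 187 (CUT&Tag) were called, with fewer regions tested. DESeq2 called 393 for 0.5M and 21 for 20K nuclei. Leaving out 1 library gave 0 to 235 for 0.5M, 3 to 1168 for 20K nuclei, 2088 to 3624 for 1 mg, 1397 to 4988 for eChIP and 1595 to 5762 for CUT&Tag. Without replicate 1 or 2 of 10M the counts were 1 and 0 (0.5M), 2160 and 2088 (1 mg), 1408 and 1397 (eChIP) and 1595 and 1608 (CUT&Tag). Without replicate 1 or 2 of 20K nuclei they were 1109 and 1168, and without replicate 2 of 500K nuclei 3. The cause was not tested.

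Groups share replicate numbers, and the labels do not say whether the numbers pair the samples. The correlation of replicate differences ran from −0.05 to 0.02 over the 5 comparisons, which cannot settle whether replicates were processed together. With the replicate block, 193 (0.5M), 57 (20K nuclei), 3726 (1 mg), 3359 (eChIP) and 3487 (CUT&Tag) regions were called, the HSP17.6A difference in CUT&Tag was −0.16, and no member region changed its call.

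With the length offset, log2 differences turned to −0.22 for HSP101 in eChIP and, in CUT&Tag, to 0.82 for HSFA2, −0.98 for HSP18.2 and −0.094 for HSP17.6A. HSP18.2 in eChIP passed with this offset (−1.10, adjusted p = 0.0302). HSP17.6A in CUT&Tag was −0.11 with total counts and −0.020 with DESeq2. With 1 library left out, it ran from −1.09 to 0.57, HSP17.6A from 20K nuclei from −0.63 to 0.64, HSP101 from 1 mg from −0.12 to 0.069, and HSP18.2 from 1 mg from −0.12 to 0.076.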
